A study of Mus musculus with 25 samples.

Results

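The 9 genes described here are the tumour suppressor p53 (Trp53), 5 of its transcriptional targets besides p21 (Mdm2, Ccng1, Gdf15, Phlda3 and Zmat3) and 3 inhibitors of cyclin-dependent kinases (Cdkn1a, Cdkn2a and Cdkn2b). They were listed by name as markers of cell-cycle arrest, senescence and the DNA damage response, and all 9 were among the 15773 genes tested out of 47729 listed in the bulk count table. RNA was measured in lineage-negative lung cells, which were sorted as live single cells lacking CD45, CD31 and CD326, the surface markers of blood, endothelial and epithelial cells. Bulk RNA-seq covered 5 groups of 4 libraries, and single-cell RNA-seq covered the same 5 conditions with 1 library each, every one a pool of 4 mice. All mice, naive ones included, were Col1a1-Cre-ERT2;Fas fl/fl. Bleomycin, a drug that breaks DNA strands, was instilled into the trachea, and cells were taken 3 or 6 weeks later. Mice given tamoxifen, which switches on the Cre recombinase in cells that use the Col1a1 promoter, are called Fas-/- (labelled FasDel), and mice given corn oil are called Fas+/+ (labelled WT). Loss of Fas and exposure to tamoxifen therefore cannot be told apart. Naive mice (labelled Control) had no bleomycin. Whether they received corn oil or tamoxifen, and the age of the mice, are not given in the sources used here. The labels do not tie bulk libraries to animals, although the study describes its replicates as individual animals, and p-values measure the spread between these libraries.

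As background, p53 is held at low levels by Mdm2, a ubiquitin ligase that is itself a p53 target, and DNA damage frees p53 to raise its targets. The target p21, encoded by Cdkn1a, blocks the cyclin-dependent kinases that drive entry into S phase. Cdkn2a encodes p16INK4a, which blocks CDK4 and CDK6, and from another first exon p19ARF, which restrains Mdm2. Its neighbour Cdkn2b encodes p15INK4b, another inhibitor of CDK4 and CDK6 that responds to TGF-β. Lasting expression of p16INK4a and p21 marks senescent cells, which have been described in fibrotic lung, and bleomycin is widely used to induce senescence in culture. Fas, the death receptor targeted in Col1a1-expressing cells of the tamoxifen-treated mice, is also a p53 target.

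The promoters of the members differed in whether they held a p53 half-site, the 10-base motif that p53 binds, usually as a pair of abutting copies (a full site, scanned on the given strand with up to 2 mismatches, since the motif is its own reverse complement). RefSeq windows of 300 bases, from 250 before to 50 after each start (GRCm38.p6), were found for 8 of the 9 genes. Of all 32851 such windows, 8.36% held a half-site and 0.32% a full site. The sequences below are examples, from the textbook p53 targets Cdkn1a, Mdm2 and Ccng1 and from Cdkn2b, which is not one. They do not stand for all targets, since the targets Gdf15 and Phlda3 had no match in their windows. Capitals mark p53 half-sites and full sites.
Cdkn1a (chr17:29090729-29091028, plus strand): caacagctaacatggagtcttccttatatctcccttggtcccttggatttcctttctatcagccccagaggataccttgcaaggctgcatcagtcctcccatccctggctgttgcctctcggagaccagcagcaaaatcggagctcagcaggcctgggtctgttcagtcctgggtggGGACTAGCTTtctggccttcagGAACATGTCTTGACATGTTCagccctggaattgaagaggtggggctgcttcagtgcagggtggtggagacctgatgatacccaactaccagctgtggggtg
Mdm2 (chr10:117710709-117711008, minus strand): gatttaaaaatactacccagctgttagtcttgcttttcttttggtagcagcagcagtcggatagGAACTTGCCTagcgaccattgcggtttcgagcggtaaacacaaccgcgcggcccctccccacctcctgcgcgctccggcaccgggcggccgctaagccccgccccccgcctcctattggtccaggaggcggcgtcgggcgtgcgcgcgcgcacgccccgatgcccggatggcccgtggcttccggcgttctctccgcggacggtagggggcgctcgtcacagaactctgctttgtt
Ccng1 (chr11:40755237-40755536, minus strand): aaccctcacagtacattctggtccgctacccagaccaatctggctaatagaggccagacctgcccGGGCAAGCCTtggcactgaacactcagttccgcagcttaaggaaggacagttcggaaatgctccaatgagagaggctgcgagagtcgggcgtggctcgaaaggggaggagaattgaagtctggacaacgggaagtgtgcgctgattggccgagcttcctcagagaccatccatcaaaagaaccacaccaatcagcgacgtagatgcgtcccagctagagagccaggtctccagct
Cdkn2b (chr4:89310983-89311282, minus strand): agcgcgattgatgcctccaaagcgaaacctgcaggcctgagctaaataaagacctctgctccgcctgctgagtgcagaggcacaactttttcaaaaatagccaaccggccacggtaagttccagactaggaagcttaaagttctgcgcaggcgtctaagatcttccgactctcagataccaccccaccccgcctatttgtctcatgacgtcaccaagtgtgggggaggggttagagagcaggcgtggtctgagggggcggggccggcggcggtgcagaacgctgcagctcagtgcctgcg
The first Cdkn1a window, printed above, held a full site with 1 mismatch that began at position -51 from its own start, with another half-site upstream of it. Cdkn1a also had a second window, from a start further downstream (chr17:29093519-29093818), which held neither. Which start these cells used was not tested. Mdm2 had 1 half-site at position -186 and Ccng1 had 1 at position -185. The Trp53 window had 1 as well, at position -75. No match was found in the windows of Cdkn2a, Cdkn2b, Gdf15 and Phlda3, or in the second Cdkn1a window, which says only that these letters are absent there. Such matches are descriptions of sequence and were not tested for binding.

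In the deposited annotation's build (GRCm38, GENCODE vM21 models) Cdkn2a (chr4:89274471-89294653) and Cdkn2b (chr4:89306299-89311039) lie beside each other on the minus strand of chromosome 4. The other genes lie apart from them, with Cdkn1a at chr17:29090976-29100727, Mdm2 at chr10:117688875-117710758, Trp53 at chr11:69580359-69591873, Ccng1 at chr11:40748552-40755311, Gdf15 at chr8:70629393-70632456, Phlda3 at chr1:135766119-135769136 and Zmat3 at chr3:32334792-32366014. Counts were summed over whole genes, so the p16INK4a and p19ARF transcripts of Cdkn2a were not separated. Cdkn1a overlaps an annotated gene on the opposite strand, AC167363.2. The strand setting used in counting is not stated, so reads from that pair are not known to be separated.

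Total counts ranged from 11819700 to 25189096 per bulk library. The sort did not leave a pure fibroblast sample, although summed mesenchymal markers were at 15182 counts per 1000000 (CPM) or more in every library. Endothelial markers (12 genes) summed to between 222 and 568 CPM in naive libraries and to as much as 10587 CPM in week 3 Fas+/+ replicate 1 and 9935 CPM in week 3 Fas-/- replicate 4, the highest of their groups. Week 6 Fas+/+ replicate 2 (2112 CPM) and week 6 Fas-/- replicate 2 (3145 CPM) had the highest level in theirs. Erythroid markers ran the other way, from 2990 to 9616 CPM in naive libraries and from 17.8 to 239 CPM after bleomycin. Results are therefore also given without those 4 endothelial-high libraries where a call changed. In bulk samples, fewer cells of a type and less RNA per cell cannot be told apart. The whole-gene Fas level was 21.1 to 23.9 CPM in naive libraries and 26.1 to 64.9 CPM after bleomycin, and since only one exon is floxed these counts do not check the deletion. The paper reports that fewer single cells expressed the floxed exon in Fas-/- than in Fas+/+ at both weeks, although some still did.

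At 3 weeks after bleomycin, 8 of the 9 members rose above naive in Fas+/+ and 8 rose in Fas-/- (adjusted p of 0.05 or less, edgeR's quasi-likelihood test with Benjamini-Hochberg adjustment over all genes), all but Ccng1 in each case. The background was high, with 22.1% of all tested genes called higher in Fas+/+ and 17.2% in Fas-/-. At 6 weeks 5 members were above naive in Fas+/+ (3.57% of all genes called higher) and 6 in Fas-/- (3.66%). All 4 of these comparisons share the same naive libraries, and no member was called lower in any of them. Members whose 4 libraries all lay above the 4 naive ones numbered 5 and 7 at week 3 (16.7% and 16.2% of all genes) and 6 and 7 at week 6 (9.27% and 8.31%), in Fas+/+ and Fas-/-. The members' median log2 fold change at 3 weeks was 0.84 in Fas+/+ and 0.85 in Fas-/-, beside a median over all genes of 0.01 and 0.02.

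**Figure D1:**
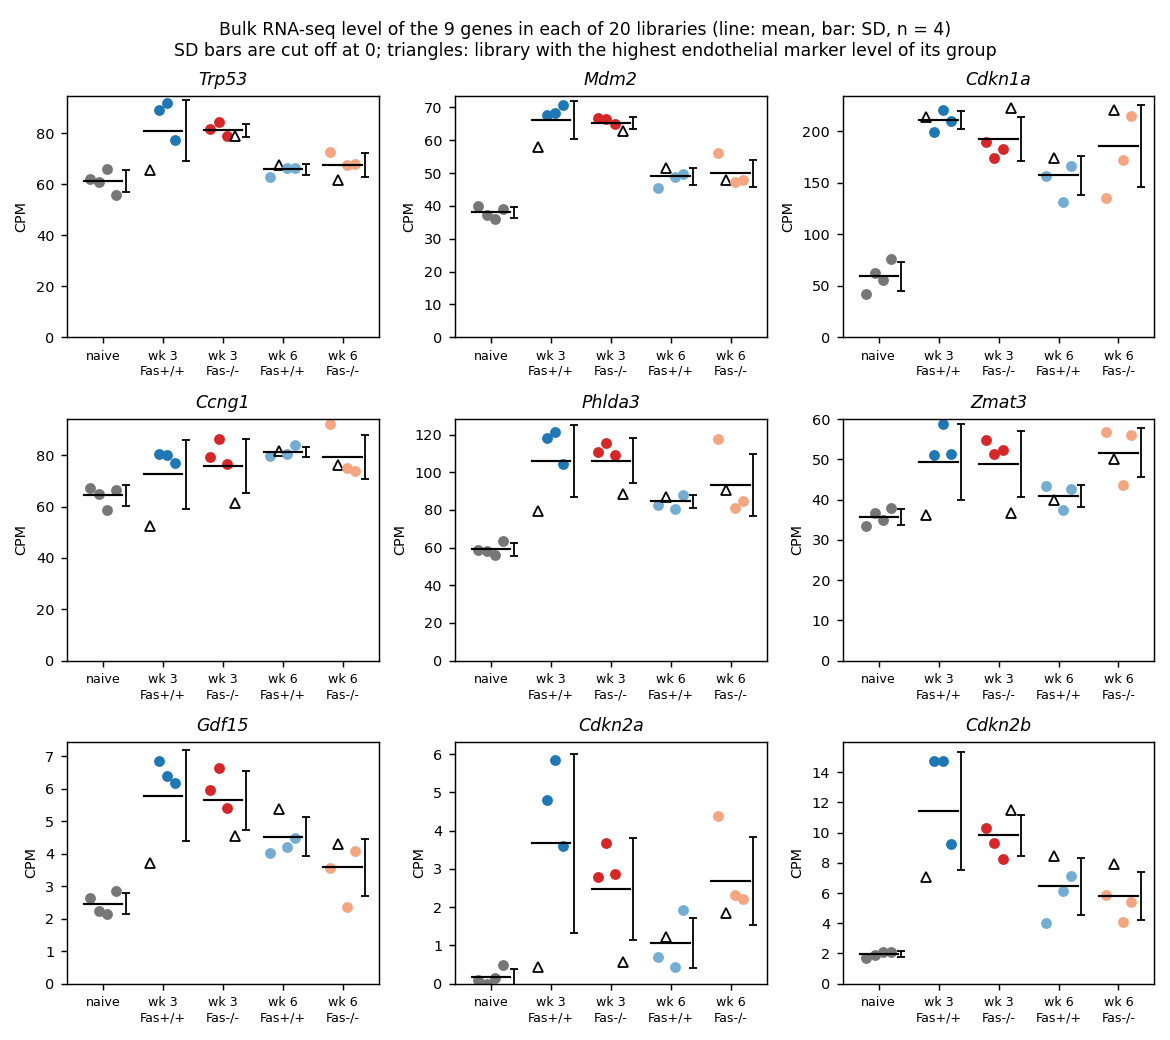
CPM of each of the 9 members in the 20 bulk libraries, by group, with the group mean as a line, the SD as a bar (cut off at 0) and a triangle for the library with the highest endothelial marker level in its group. Cdkn1a and Cdkn2b are above every naive library in every bleomycin library, whereas the Trp53 and Ccng1 groups lie closer together.

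Cdkn1a showed the largest shift among the abundant members. In naive libraries it was at 42.4, 62.01, 55.9 and 76.1 CPM (replicates 1 to 4), and in week 3 Fas+/+ libraries at 214, 199, 221 and 210.2 CPM. Week 3 Fas-/- libraries held 189, 174, 183 and 223 CPM. At week 6 the levels were 157, 174, 131 and 167 CPM in Fas+/+ and 135, 220.4, 172 and 215 CPM in Fas-/-. Every bleomycin library was above every naive one, and the week 6 Fas-/- libraries were the most scattered (186 ± 40.0, SD, n = 4). The log2 fold change over naive was 1.84 ± 0.16 (SE, adjusted p = 7.02e-07) in week 3 Fas+/+, 3.57-fold, and 1.70 ± 0.16 (SE, adjusted p = 3.06e-06) in week 3 Fas-/-. It was 1.41 ± 0.16 (SE, adjusted p = 6.63e-05) in week 6 Fas+/+ and 1.65 ± 0.16 (SE, adjusted p = 1.39e-05) in week 6 Fas-/-.

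Cdkn2a was nearly absent from naive libraries, at 0.0861, 0, 0.143 and 0.476 CPM, or 2, 0, 3 and 11 reads. It reached 0.442, 4.80, 5.85 and 3.60 CPM in week 3 Fas+/+ and 2.80, 3.68, 2.87 and 0.561 CPM in week 3 Fas-/-. In week 6 Fas+/+ it was at 0.686, 1.22, 0.446 and 1.91 CPM, and in week 6 Fas-/- at 4.39, 1.84, 2.31 and 2.21 CPM. Low values came from the 2 week 3 libraries with the highest endothelial level (9 reads in Fas+/+ replicate 1 and 11 reads in Fas-/- replicate 4). The same libraries were lowest of their groups in the summed level of 10 markers of profibrotic fibroblasts, the class that held most Cdkn2a in the single-cell data described later. That sum was 14052 CPM in Fas+/+ replicate 1, against 55980 to 68703 CPM in the other libraries of its group, and 24855 CPM in Fas-/- replicate 4, against 47259 to 59101 CPM. It ranged from 16832 to 24800 CPM in naive, from 17910 to 23492 CPM in week 6 Fas+/+ and from 22914 to 33325 CPM in week 6 Fas-/- libraries. Over naive, 22.1%, 17.2%, 3.57% and 3.66% of all tested genes rose in week 3 Fas+/+, week 3 Fas-/-, week 6 Fas+/+ and week 6 Fas-/-. Of the 10 markers, 8, 7, 1 and 3 rose in the same order. Their part in the Cdkn2a level was not tested. The log2 fold change over naive was 4.33 ± 0.85 (SE, adjusted p = 0.000697) in week 3 Fas+/+, with overlap between the groups and an exact two-sided permutation p of 0.0571. It was 3.79 ± 0.84 (SE, adjusted p = 0.0029) in week 3 Fas-/- and 3.90 ± 0.84 (SE, adjusted p = 0.0103) in week 6 Fas-/-, both without overlap. In week 6 Fas+/+ it missed the threshold at 2.56 ± 0.87 (SE, adjusted p = 0.0985), and without the 4 endothelial-high libraries it passed at 2.48 (adjusted p = 0.0280). These folds rest on few naive reads and are imprecise.

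Cdkn2b, the neighbour of Cdkn2a, had a tight naive range of 1.72, 1.88, 2.10 and 2.12 CPM. Levels were 7.07, 14.7, 14.7 and 9.22 CPM in week 3 Fas+/+ and 10.3, 9.28, 8.27 and 11.5 CPM in week 3 Fas-/-. Week 6 levels were 4.04, 8.45, 6.15 and 7.10 CPM in Fas+/+ and 5.85, 7.94, 4.06 and 5.41 CPM in Fas-/-. No bleomycin library overlapped the naive ones. The log2 fold change over naive was 2.54 ± 0.27 (SE, adjusted p = 2.98e-06) in week 3 Fas+/+ (5.81-fold) and 2.33 ± 0.26 (SE, adjusted p = 1.50e-05) in week 3 Fas-/-. At week 6 it was 1.72 ± 0.26 (SE, adjusted p = 0.000698) in Fas+/+ and 1.57 ± 0.26 (SE, adjusted p = 0.00208) in Fas-/-.

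Mdm2, the ligase that marks p53 for destruction, moved less but with little scatter. It was at 39.9, 37.2, 35.9 and 38.96 CPM in naive libraries, 57.8, 67.7, 68.3 and 70.7 CPM in week 3 Fas+/+ and 66.7, 66.6, 64.8 and 62.8 CPM in week 3 Fas-/-. Week 6 libraries held 45.6, 51.7, 48.8 and 49.7 CPM in Fas+/+ and 56.2, 47.9, 47.4 and 48.04 CPM in Fas-/-. All 16 bleomycin libraries were above all 4 naive ones, and the week 3 libraries were above the week 6 libraries. The log2 fold change was 0.80 ± 0.07 (SE, adjusted p = 5.99e-07) and 0.78 ± 0.07 (SE, adjusted p = 1.42e-06) at week 3 in Fas+/+ and Fas-/-. At week 6 it was 0.37 ± 0.07 (SE, adjusted p = 0.00405) and 0.39 ± 0.07 (SE, adjusted p = 0.00289).

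Trp53 itself changed by less than Mdm2. Naive libraries held 61.9, 60.8, 66.1 and 55.6 CPM, week 3 Fas+/+ 65.7, 89.1, 91.6 and 77.3 CPM and week 3 Fas-/- 81.7, 84.6, 78.9 and 79.04 CPM. Week 6 levels were 62.8, 67.6, 66.4 and 66.3 CPM in Fas+/+ and 72.8, 61.5, 67.6 and 67.8 CPM in Fas-/-. The week 3 Fas+/+ group overlapped the naive range through replicate 1, and both week 6 groups overlapped it. Trp53 rose at week 3 by a log2 fold change of 0.40 ± 0.09 (SE, adjusted p = 0.00126) in Fas+/+ and 0.41 ± 0.09 (SE, adjusted p = 0.00187) in Fas-/-. At week 6 the values were 0.11 ± 0.09 (SE, adjusted p = 0.55) and 0.14 ± 0.09 (SE, adjusted p = 0.366), short of the threshold.

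Among the remaining p53 targets, Phlda3, a repressor of AKT signalling, had naive levels of 58.5, 58.2, 55.8 and 63.6 CPM. It was at 79.4, 118, 122 and 104 CPM in week 3 Fas+/+ and 111, 116, 109 and 88.7 CPM in week 3 Fas-/-. Week 6 levels were 82.6, 87.1, 80.6 and 87.97 CPM in Fas+/+ and 118, 90.4, 80.8 and 84.9 CPM in Fas-/-. Every bleomycin library exceeded every naive one. Phlda3 rose by a log2 fold change of 0.84 ± 0.13 (SE, adjusted p = 7.49e-05) and 0.85 ± 0.13 (SE, adjusted p = 0.00014) at week 3. Its week 6 rise was 0.52 ± 0.13 (SE, adjusted p = 0.0205) in Fas+/+ and 0.66 ± 0.13 (SE, adjusted p = 0.00472) in Fas-/-. The week 6 Fas+/+ call was lost when any 1 of 6 libraries was left out, with adjusted p-values up to 0.0846.

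Gdf15, a secreted stress cytokine, was low throughout, at 2.63, 2.24, 2.15 and 2.86 CPM in naive libraries. It was at 3.73, 6.85, 6.38 and 6.18 CPM in week 3 Fas+/+ and 5.97, 6.65, 5.40 and 4.54 CPM in week 3 Fas-/-. Week 6 levels were 4.04, 5.38, 4.21 and 4.48 CPM in Fas+/+ and 3.55, 4.30, 2.37 and 4.08 CPM in Fas-/-. Only the week 6 Fas-/- group overlapped the naive range. The rise was 1.22 ± 0.21 (SE, adjusted p = 0.000211) in week 3 Fas+/+, 1.19 ± 0.21 (SE, adjusted p = 0.000439) in week 3 Fas-/- and 0.87 ± 0.21 (SE, adjusted p = 0.0172) in week 6 Fas+/+. In week 6 Fas-/- the log2 fold change was 0.54 ± 0.21 (SE, adjusted p = 0.139). The week 6 Fas+/+ call was lost without any 1 of 3 libraries, with adjusted p-values up to 0.0850.

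Zmat3, an RNA-binding splicing regulator, was at 33.4, 36.6, 34.96 and 37.9 CPM in naive libraries. It was at 36.1, 51.1, 58.7 and 51.4 CPM in week 3 Fas+/+ and 54.9, 51.3, 52.4 and 36.7 CPM in week 3 Fas-/-. Later, at week 6, it was at 43.4, 39.8, 37.3 and 42.6 CPM in Fas+/+ and 56.8, 50.2, 43.7 and 56.1 CPM in Fas-/-. Both week 3 groups reached into the naive range through their endothelial-high library. Zmat3 rose by 0.46 ± 0.13 (SE, adjusted p = 0.0105) in week 3 Fas+/+, 0.45 ± 0.13 (SE, adjusted p = 0.0165) in week 3 Fas-/- and 0.53 ± 0.13 (SE, adjusted p = 0.0242) in week 6 Fas-/-, and the value in week 6 Fas+/+ was 0.19 ± 0.13 (SE, adjusted p = 0.474). The calls in week 3 and week 6 Fas-/- were lost without any 1 of 4 and of 6 libraries, with adjusted p-values up to 0.0700 and 0.0892.

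Ccng1, which encodes cyclin G1, a regulator of the PP2A phosphatase, was the one member that passed in no comparison with naive. It was at 67.2, 64.97, 58.6 and 66.7 CPM in naive libraries, 52.6, 80.7, 80.1 and 77.1 CPM in week 3 Fas+/+ and 79.4, 86.3, 76.6 and 61.3 CPM in week 3 Fas-/-. Week 6 levels were 79.6, 81.9, 80.5 and 84.04 CPM in Fas+/+ and 92.3, 76.3, 75.1 and 73.9 CPM in Fas-/-, all above every naive library. The log2 fold change was 0.17 ± 0.12 (SE, adjusted p = 0.264), 0.24 ± 0.12 (SE, adjusted p = 0.14), 0.34 ± 0.12 (SE, adjusted p = 0.115) and 0.30 ± 0.12 (SE, adjusted p = 0.151) in the 4 groups in the same order. Without the 4 endothelial-high libraries it was 0.30, 0.32, 0.33 and 0.32 (adjusted p = 0.00358, 0.00347, 0.00958 and 0.0118), so that Ccng1 passed in each. Leaving out week 3 Fas+/+ replicate 1 alone also brought it past the threshold in all 4, at 0.30, 0.23, 0.34 and 0.30 (adjusted p = 0.0165, 0.0459, 0.0243 and 0.0387).

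The endothelial-high library was the lowest of its group for 8 of the 9 members in week 3 Fas+/+ and for 6 in week 3 Fas-/-. It was the highest for 0 members in week 3 Fas+/+ and for 2, Cdkn1a and Cdkn2b, in week 3 Fas-/-. At week 6 it was the lowest for 0 members in Fas+/+ and 2 in Fas-/-, and the highest for 5 and 3. Its part in the members' levels was not tested beyond leaving it out. Over deviations from the group means in the 20 libraries, Ccng1 and Phlda3 moved together most closely (Pearson r = 0.93), whereas Cdkn1a had r between -0.38 and -0.02 with Mdm2, Trp53, Ccng1, Phlda3 and Zmat3. The libraries share their depth and cell makeup in these correlations, which are descriptions only. On a scale of CPM per kilobase, Phlda3 had the highest mean naive level of the members (37.9), followed by Ccng1 (18.3), Cdkn1a (16.6) and Trp53 (15.1), which lay close to each other. Mdm2 (7.48), Zmat3 (3.12), Cdkn2b (1.41), Gdf15 (1.33) and Cdkn2a (0.15) followed. In week 3 Fas+/+ Cdkn1a reached 59.4 CPM per kilobase beside 67.9 for Phlda3.

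**Figure D2:**
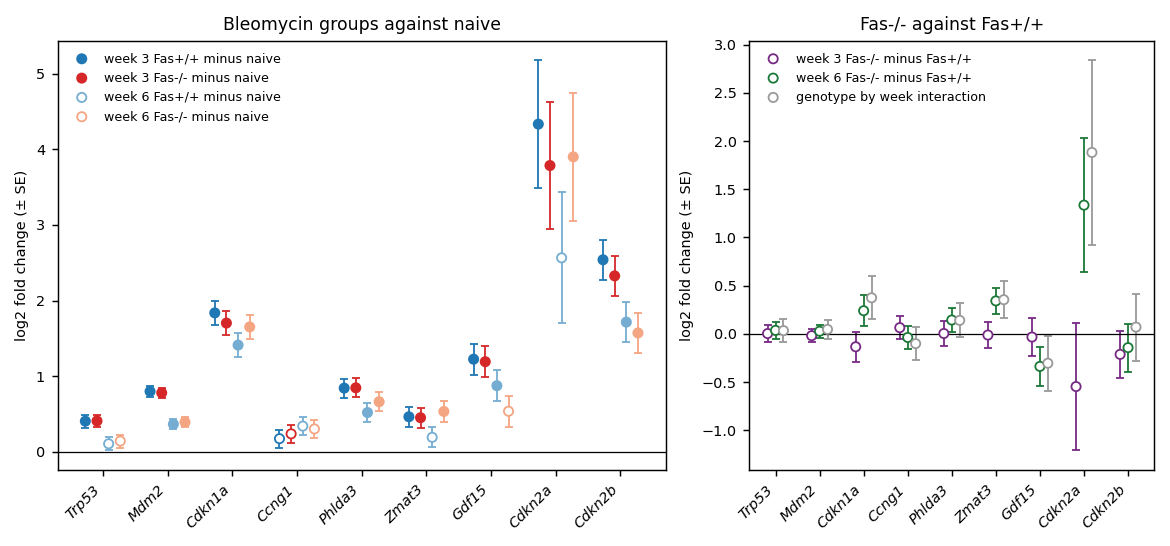
Fitted log2 fold changes with SE for the 9 members, on the left for the 4 bleomycin groups against naive and on the right between genotypes at each week and for their interaction, with filled points at adjusted p of 0.05 or less. Filled points stand on the left only, from 0.37 for Mdm2 in week 6 Fas+/+ to 4.33 for Cdkn2a in week 3 Fas+/+.

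The comparison of Fas-/- with Fas+/+ asked whether loss of Fas in Col1a1-expressing cells moved these genes. None of the 9 members passed at 3 weeks (0.171% of all tested genes did, with 8.62% at an unadjusted p of 0.05 or less) and none at 6 weeks (0.0507% and 8.07%). At week 3 the differences lay between -0.55 for Cdkn2a and 0.06 for Ccng1, with adjusted p-values of 0.846 or more. DESeq2 called none of the members at either week, and neither did the fit without the 4 endothelial-high libraries, in which 1289 genes in all passed at week 3 and 117 at week 6. At week 6 Zmat3 had no overlap, every Fas-/- library being above every Fas+/+ library (51.7 ± 6.07 against 40.8 ± 2.77 CPM, SD, n = 4 each). At week 3 no member was without overlap (3.92% of all genes). The log2 difference of Zmat3 was 0.34 ± 0.13 (SE, adjusted p = 0.471), with an exact two-sided permutation p of 0.0286, the smallest that 4 against 4 allows, and 6.81% of all genes did not overlap in that comparison. Cdkn2a differed by 1.34 ± 0.69 (SE, adjusted p = 0.688) at week 6, with Fas-/- higher and the groups overlapping. The other week 6 differences were between -0.34 for Gdf15 and 0.24 for Cdkn1a. The change of the genotype difference between weeks passed for none of the members (0.00634% of all genes, with 7.67% at an unadjusted p of 0.05 or less), and Cdkn2a had the largest at 1.88 ± 0.96 (SE, adjusted p = 0.686).

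Weeks 3 and 6 were compared within each genotype to follow the members after the first weeks of the response to bleomycin. In Fas+/+ 3 members fell (10.9% of all genes called lower), with log2 changes of -0.43 ± 0.07 (SE, adjusted p = 0.000423) for Mdm2, -0.82 ± 0.25 (SE, adjusted p = 0.0227) for Cdkn2b and -0.30 ± 0.09 (SE, adjusted p = 0.0176) for Trp53. Cdkn1a and Mdm2 had no overlap (11.2% of all genes in that direction), Cdkn1a with every week 6 library below every week 3 library, at -0.43 ± 0.16 (SE, adjusted p = 0.0607). Without the 4 endothelial-high libraries 8 members fell, all but Ccng1, with Cdkn1a at -0.47, Cdkn2a at -2.22 and Gdf15 at -0.61. The background was larger in that fit, with 5863 genes in all called in either direction, against 3615 in the main fit. In Fas-/- Mdm2 alone fell, with a log2 change of -0.39 ± 0.07 (SE, adjusted p = 0.00347) (4.54% of all genes called lower). Cdkn2b at -0.75 ± 0.25 (SE, adjusted p = 0.0644), Trp53 at -0.27 ± 0.09 (SE, adjusted p = 0.0587) and Gdf15 at -0.66 ± 0.20 (SE, adjusted p = 0.0516) had no overlap, as did Mdm2 (8.1% of all genes in that direction), but missed the threshold. Without the 4 endothelial-high libraries all 3 passed, in a fit that called 2650 genes in all in either direction, against 1422 in the main fit. Cdkn1a and Cdkn2a differed by -0.05 ± 0.16 (SE, adjusted p = 0.869) and 0.11 ± 0.66 (SE, adjusted p = 0.933) in Fas-/-. As the interaction above shows, no difference between the genotypes in these time courses passed.

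Other p53 targets rose more often than they fell at week 3. Of 36 other p53 targets tested (of 37 listed, Fas among them), 22 rose and 8 fell in week 3 Fas+/+, the median log2 fold change being 0.52, and 18 rose and 6 fell in week 3 Fas-/- (0.42). At week 6, 5 rose and 1 fell in Fas+/+ (0.30) and 7 rose and 1 fell in Fas-/- (0.27). Of all tested genes, 22.1% and 17.2% were called higher at week 3, and 3.57% and 3.66% at week 6, in Fas+/+ and Fas-/-. The p53 targets that fell at week 3 were a share near that of all tested genes called lower, which was 19.2% in Fas+/+ and 14.8% in Fas-/- (1.74% and 2.81% at week 6). Genes that rose in all 4 groups included Bax, a pore-forming effector of apoptosis, from a mean of 26.3 CPM in naive to 43.6, 40.2, 34.8 and 32.8 CPM in week 3 Fas+/+, week 3 Fas-/-, week 6 Fas+/+ and week 6 Fas-/- (log2 fold change 0.72, 0.61, 0.40 and 0.32). Eda2r, a receptor of the TNF receptor family, did so from 8.85 CPM to between 16.01 and 19.1 CPM (1.05, 1.00, 0.85 and 1.11). The nuclease Aen (0.51, 0.58, 0.58 and 0.66) and the spindle protein Psrc1 (2.60, 2.50, 1.76 and 2.12) rose in all 4 as well. Apaf1, the scaffold of the apoptosome, rose at week 3 alone, by 0.94 and 0.61, and had 0.16 and 0.15 at week 6. Trp53inp1 passed in week 6 Fas-/- alone (0.63), where the other groups had 0.18 to 0.24. Tap1, a peptide transporter of antigen presentation, rose by 1.17, 1.27 and 0.72 in the first 3 groups. Against these, Fdxr, a mitochondrial reductase, fell in all 4 groups (-0.85, -0.62, -0.43 and -0.49), and Cd82, a tetraspanin, fell at week 3 (-0.60 and -0.31). No other p53 target was called between genotypes.

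Few regulators of p53 passed the test. Of 15 tested, 1 rose in week 3 Fas+/+ and 2 in week 3 Fas-/-, and 0 passed at week 6. At week 3, 22.1% and 17.2% of all tested genes were called higher, so these counts were under the background. The kinase Hipk2 rose at week 3, by 0.73 in Fas+/+ and 0.54 in Fas-/-. None of the 4 other CDK inhibitors rose against naive. Cdkn1c, which encodes p57KIP2, fell at week 3 from 62.2 CPM to 29.2 CPM in Fas+/+ (log2 fold change -1.09) and 28.5 CPM in Fas-/- (-1.12), and rose again by week 6 (0.89 and 0.80). The other 3, of which none passed at any time against naive, were Cdkn1b, Cdkn2c and Cdkn2d.

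Genes of proliferation, the process that CDK inhibitors oppose, rose at week 3 as well. Of 28 tested, 27 rose in week 3 Fas+/+ and 20 in week 3 Fas-/-, beside 22.1% and 17.2% of all tested genes. The median log2 fold changes of the proliferation genes there were 2.09 and 1.35. At week 6, 0 passed, and their medians were -0.44 and -0.53. The summed level of these genes was 158 to 244 CPM in naive libraries and 457 to 728 CPM in 3 of the week 3 Fas+/+ libraries, but 212 CPM in replicate 1. It was 343 to 442 CPM in 3 of the week 3 Fas-/- libraries and 223 CPM in replicate 4, so both endothelial-high libraries lay within the naive range. From week 3 to week 6, 27 fell in Fas+/+ and 24 in Fas-/- (10.9% and 4.54% of all tested genes called lower). Mcm6 and Mcm3, subunits of the replicative helicase, rose by 1.10 and 1.54 in week 3 Fas+/+, and the mitotic kinase Plk1 by 2.76. Of 14 CDK, cyclin and RB genes, 7 rose and 1 fell in week 3 Fas+/+ and 6 rose and 1 fell in week 3 Fas-/-. The shares of all tested genes there were 22.1% and 17.2% called higher and 19.2% and 14.8% called lower. Ccnd1, the cyclin partner of CDK4 and CDK6, rose from 21.02 to 133 CPM in week 3 Fas+/+ (2.66) and 91.5 CPM in week 3 Fas-/- (2.12). Rbl1 rose by 1.28 and 0.99 there and its relative Rbl2 fell by 0.56 and 0.39 on the log2 scale. At week 6 only Cdk6 passed, lower by -0.33 in Fas+/+.

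**Figure D3:**
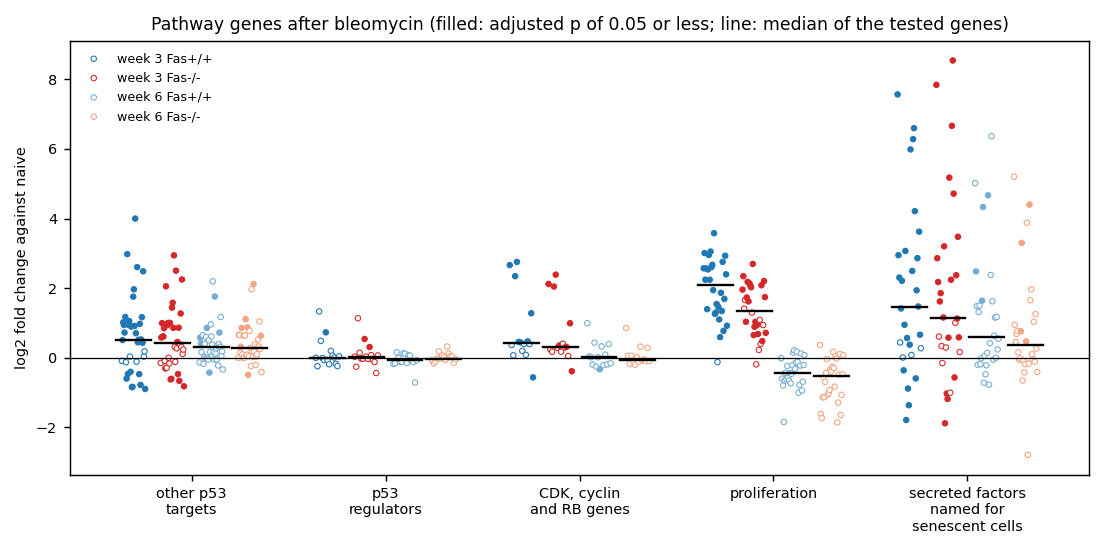
Log2 fold changes against naive of every tested gene in 5 lists of the pathway, in the 4 bleomycin groups. The proliferation genes lie well above 0 at week 3 (median 2.09 in Fas+/+) and below it at week 6 (-0.44), and the p53 regulators centre on 0 throughout.

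The genes whose log2 CPM was most like each member's over the 20 libraries were taken as the 3 with the highest Pearson r, as a description that carries the shared group differences. For Cdkn1a they were Cx3cl1 (r = 0.94), Npdc1 (0.93) and Pitpnm1 (0.92). For Cdkn2a they were Dkk2 (0.96), Csmd1 (0.95) and Shc4 (0.94), and for Cdkn2b Ass1 (0.96), Msx1 (0.96) and Slc15a3 (0.95). Mdm2 had Ass1 (0.97), Tgfb1 (0.97) and Limd2 (0.96), and Trp53 had Hmox1 (0.94), Lap3 (0.94) and Mex3a (0.93). Ccng1 had Samd14 (0.90), Fads3 (0.90) and Cpt1c (0.88), and the 3 of Gdf15 included Sdc1 (0.93) and Klhdc8a (0.92). Phlda3 had B4galnt1, Wnt10a and Inava (0.96 each), and Zmat3 had Ror2, Cilp and Ltbp2 (0.93 each).

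The single-cell libraries placed the members in cell classes. After filtering, 12059 of 13900 barcodes were kept, from 603 in the naive library to 3240 in week 6 Fas+/+, with medians of 5768 to 8896 UMIs (counted molecules) per cell. Barcodes were shared between libraries, 607 of them by 2 or more, and 1540 kept cells carried one. They made up 58.0% of naive cells and between 6.08% and 14.8% of the cells of the other libraries, and their median UMI count was 11972.5 in the naive library against 758 to 1133.5 in the others. Some naive values are therefore also given without those cells, where at least 20 others remained in the class. All other naive values include them and were not checked in this way in the text. With 1 library per condition there is no test between conditions, and the intervals below are exact 95% Poisson or binomial ones that cover counting error only. Clusters were named from fixed markers as 12 classes, each called X-like. In the profibrotic-like class all 10 markers were raised, and the leading genes began with Spp1, Thbs4 (not one of the 10 markers) and Cthrc1.

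Over all cells, and as UMIs of a gene per 1000000 UMIs (CPM), Cdkn1a was at 106 CPM in the naive library (97.8 to 115) and at 211, 254, 249.6 and 222 in week 3 Fas+/+, week 3 Fas-/-, week 6 Fas+/+ and week 6 Fas-/-. Without cells that share a barcode the naive level was 52.2 and the others 191, 217, 247 and 219.8. Leaving them out cut the naive library from 603 to 253 cells and from 5615583 to 1302752 UMIs. The mix of classes may change with them, and its part in the lower naive level was not tested. Within cells outside the endothelial-, epithelial- and blood-like classes Cdkn1a was at 107 in naive and 180, 227, 188 and 202 in the others. At week 6 the Fas+/+ library was thus the lower one there, though the higher one over all cells. Endothelial-like cells numbered 1153 of 3240 in week 6 Fas+/+ and 252 of 2944 in week 6 Fas-/-. Over all cells, Cdkn2a rested on 3 naive UMIs (0.534 CPM) and was at 3.88, 12.7, 6.23 and 11.2 in the bleomycin libraries. All of those naive UMIs came from cells with a shared barcode. Phlda3 went from 122 to 198, 199, 211 and 235 in the same order, and the naive level without shared barcodes was 85.2. The order of the weeks was opposite to that of the bulk means for all 9 members in Fas+/+ and for 6 in Fas-/-, all but Cdkn1a, Ccng1 and Zmat3. The single-cell intervals of the weeks overlapped for Cdkn2b, Ccng1 and Zmat3 in Fas+/+ and for Cdkn2a and Zmat3 in Fas-/-. Those orders lie within counting error. No such count was made over all genes, so a shift of whole libraries cannot be told from a trait of these members. Mdm2 was at 48.5 and 46.4 in the week 3 libraries (Fas+/+ and Fas-/-) and at 71.8 and 58.0 in the week 6 libraries, and Trp53 at 55.6 and 51.5 against 76.3 and 78.3. Cdkn2b was at 13.4 and 8.90 against 15.1 and 16.8, and Gdf15 at 11.9 and 8.26 against 26.1 and 12.7. Outside the endothelial-, epithelial- and blood-like classes Cdkn2b was at 5.15 and 6.52 at week 3 (Fas+/+ and Fas-/-). Its genotype order thus reversed, with overlapping intervals. Within cells outside these classes Trp53 was at 55.2 and 50.5 against 76.1 and 76.97, so its order of the weeks was the same as over all cells. Ccng1 in Fas+/+ was at 57.3 in week 3 and 60.2 in week 6 there, but at 57.7 and 53.2 over all cells. Its order outside these classes was therefore that of the bulk means (72.7 and 81.5 CPM), although the single-cell intervals overlapped there too.

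Cdkn2a was concentrated in the profibrotic-like class, as shown by where its UMIs lay. The class held 685 of 919 Cdkn2a UMIs over all libraries, 74.5% (71.6 to 77.3), while it made up 5.33% of cells and 11.8% of all UMIs. In the bleomycin libraries its share of the gene's UMIs was 49.0%, 72.8%, 61.9% and 90.5% (week 3 Fas+/+, week 3 Fas-/-, week 6 Fas+/+ and week 6 Fas-/-). The level in the class was 44.7 CPM (33.3 to 58.7) in week 3 Fas+/+ and 149.6 (127 to 175) in week 3 Fas-/-. At week 6 it was 27.1 (22.7 to 32.1) in Fas+/+ and 50.2 (45.05 to 55.9) in Fas-/-. The Fas-/- library was the higher at both times, and the UMIs came from 14, 42, 45 and 60 cells, with at most 26 UMIs in 1 cell. In bulk, where replicates exist, the week 3 Fas-/- mean was the lower one and the groups overlapped. Without shared barcodes the 4 levels were 37.6, 145, 28.3 and 49.5. The naive library held 10 such cells and 0 Cdkn2a UMIs in them.

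With all libraries pooled, every other named class was at 7.90 CPM of Cdkn2a or less, and lipofibroblast-like cells were at 0.346. In single libraries, epithelial-like cells ranged from 0 to 24.3 CPM over the 3 that had enough of them. At a common depth of 3000 UMIs, 10.5% of profibrotic-like cells held a Cdkn2a UMI, against 0.0619% of lipofibroblast-like and 0 of 641 vascular smooth muscle-like cells. Untrimmed shares were 25.04%, 0.277% and 0.228%, at median depths of 18407, 7713.5 and 7013 UMIs. Cdkn2b was highest in 3 classes. In the profibrotic-like class it was at 47.3, 51.1, 37.9 and 54.7 CPM in the 4 bleomycin libraries, and at 253, 182 and 238 in epithelial-like cells of week 3 Fas+/+, week 6 Fas+/+ and week 6 Fas-/-. Endothelial-like cells were at 24.6, 22.6, 20.7 and 24.7, mesothelial-like cells at 4.96 to 18.97, Col14a1 fibroblast-like cells at 5.05 to 7.79 and lipofibroblast-like cells at 1.49 or less in every library. Of all Cdkn2b UMIs, 40.9% lay in profibrotic-like, 23.3% in epithelial-like and 13.9% in endothelial-like cells.

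**Figure D4:**
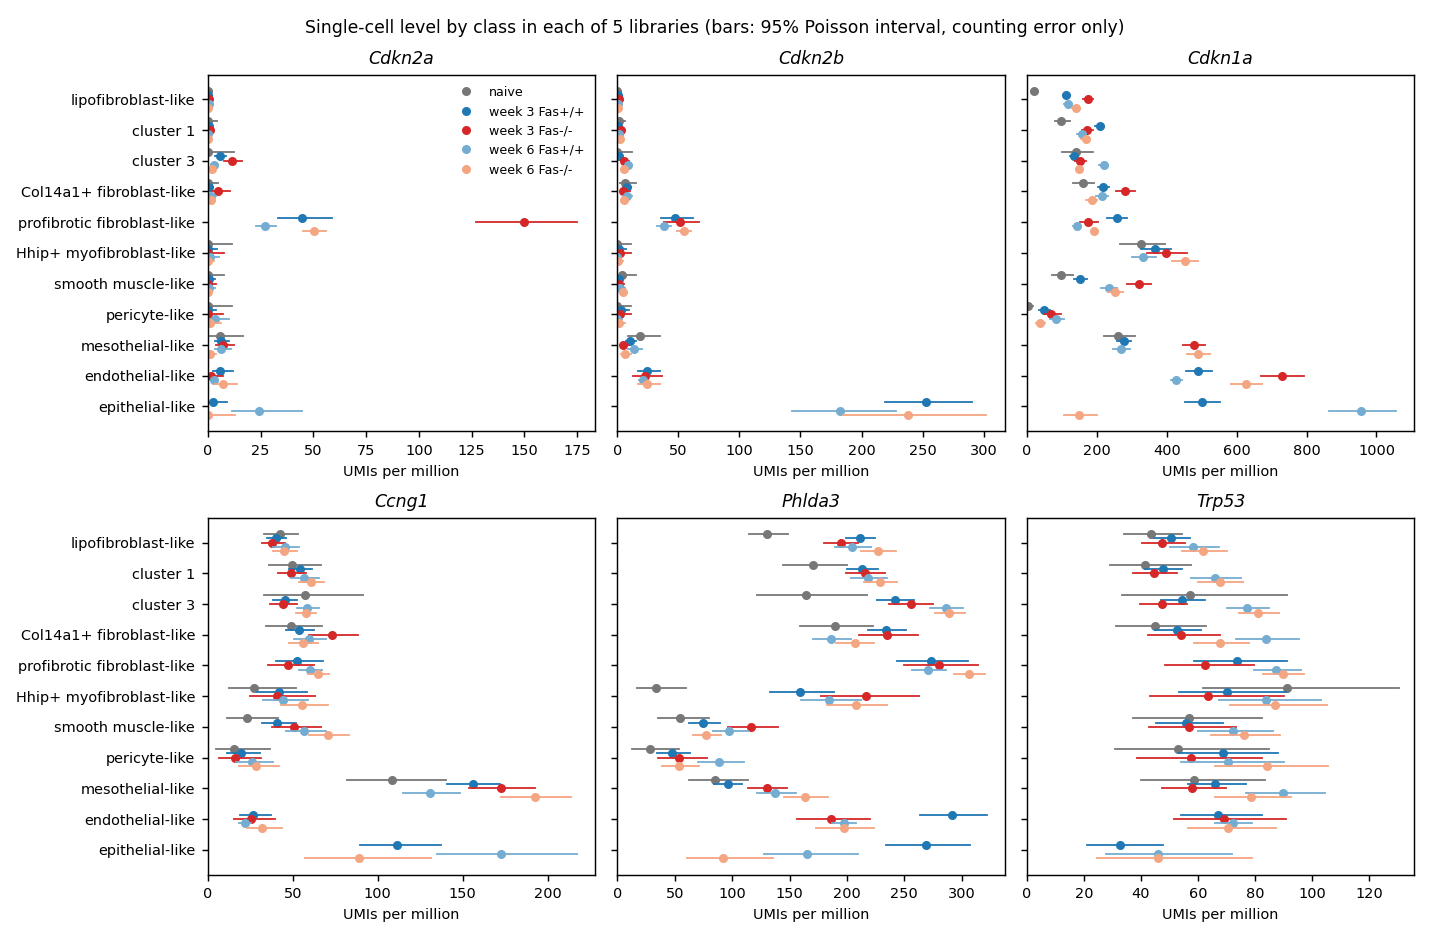
CPM of 6 members in 11 cell classes and the 5 single-cell libraries, with exact 95% Poisson intervals. Cdkn2a stands out in the profibrotic-like class (27.1 to 149.6), whereas Cdkn1a is spread over many classes and is lowest among the mesenchymal ones in pericyte-like cells.

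Cdkn1a had a broader pattern. It was high in endothelial-like cells (491, 729, 428 and 627 CPM in the 4 bleomycin libraries). Epithelial-like (mean over libraries 535, range 149 to 956) and erythroid-like cells (530, range 376 to 730) were also high. Unnamed cluster 22 was at 999.7 in the 1 library with enough of its cells. Among the named mesenchymal classes it was highest on average in Hhip myofibroblast-like cells. There the naive library was already at 326 (267 to 394) and the others at 367, 397, 333 and 451. Profibrotic-like cells were lower, at 257, 176, 143 and 193. Lipofibroblast-like cells stood low in the naive library, at 19.4 (13.4 to 27.1) in naive and 113, 174, 118 and 141 after bleomycin. The class joins clusters 0 and 4, with median depths of 9731 and 1062.5 UMIs. They held 155 and 23 cells in the naive library, 425 and 125 in week 3 Fas+/+ and 350 and 252 in week 3 Fas-/-. At week 6 they held 245 and 94 in Fas+/+ and 297 and 198 in Fas-/-. How this mix bears on the class levels was not tested. Without shared barcodes the naive level was 13.1 in lipofibroblast-like cells and 346 in Hhip myofibroblast-like cells. Pericyte-like cells were lowest of the mesenchymal classes, at 3.12 from 1 naive UMI, in a cell with a shared barcode, and 48.5, 69.4, 83.9 and 36.4 after bleomycin. Cdkn1a in mesothelial-like cells was at 278 and 269.7 in the week 3 and week 6 Fas+/+ libraries and at 477 and 489 in the Fas-/- libraries. That class joins clusters 13 and 16, with median depths of 2238 and 18518.5 UMIs. They held 90 and 64 cells in week 3 Fas+/+ and 84 and 95 in week 3 Fas-/-. At week 6 they held 105 and 37 in Fas+/+ and 131 and 65 in Fas-/-. The part of this mix in the levels was not tested.

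Phlda3 was highest among the mesenchymal classes in profibrotic-like cells, at 273, 280.3, 271 and 307 CPM, and low in pericyte-like cells (28.1 in naive, 47.4 to 88.4 after bleomycin). Ccng1 stood high in mesothelial-like cells, at 108 in naive and 156, 172, 131 and 192 after bleomycin. All but 1 of the 24 naive mesothelial-like cells carried a shared barcode. Ccng1 was low in endothelial-like cells (21.7 to 32.1) and pericyte-like cells (15.6 to 28.4). Zmat3 was likewise higher in mesothelial-like (28.5 to 76.8) than in endothelial-like cells (12.7 to 18.6). The classes did not rank alike throughout. In epithelial-like cells the mean over libraries was 124 for Ccng1 (rank 2 of all classes and unnamed clusters) and 28.5 for Zmat3 (rank 10). Of the classes seen in 3 or more libraries, endothelial-like cells had the lowest mean Zmat3 level and the lowest mean Ccng1 level after pericyte-like cells. The mean of Trp53 over libraries lay between 52.4 in lipofibroblast-like and 79.2 in Hhip myofibroblast-like cells among the named mesenchymal classes. That of Mdm2 lay between 42.5 in Col14a1 fibroblast-like and 66.2 in profibrotic-like cells. Mdm2 was at 44.7, 49.2, 95.2 and 75.6 in profibrotic-like cells. The mean Gdf15 level over libraries was highest in erythroid-like (104, range 22.5 to 281) and epithelial-like cells (60.6, range 0 to 151) among the named classes. Beside haemoglobin genes, the leading genes of the erythroid-like cluster held Igkc, Igha, Jchain and the haematopoietic marker Lyz2. The name therefore does not exclude other blood cells, and which of them held Gdf15 was not tested. The unnamed cluster 22 was at 227 in the 1 library with enough of its cells. In vascular smooth muscle-like cells the mean was 45.1. Gdf15 was found there in every library (30.9 to 70.4), but in week 6 Fas+/+ 78 of its 119 UMIs in the class came from 1 cell. Of the 878 cells of that class, 452 lay in cluster 8, whose 10 leading genes held the smooth muscle markers Acta2 and Lmod1 and the pericyte marker Notch3.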

How the data were processed

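Bulk and single-cell RNA-seq of sorted mouse lung cells were used. For bulk libraries the authors used skewer for trimming, HISAT2 for alignment (GRCm38) and HTSeq for gene counts, and the deposited raw read counts were analysed. The deposited single-cell UMI counts came from Cell Ranger. Bulk genes passing edgeR's filterByExpr (minimum count 10) were TMM-normalised and fitted over all 5 groups with the quasi-likelihood test (edgeR 4.0.16, R 4.3.3). The script was tested on simulated data. Calls needed a Benjamini-Hochberg adjusted p of 0.05 or less. Barcodes of the single-cell libraries were kept between 200 and 7500 genes and up to 20% mitochondrial UMIs, and integrated with sctransform 0.4.2 and Seurat 5.3.0 (3000 features, from which 277 member, list and marker genes were left out, 20 components, resolution 0.8).

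Clusters were named where at least 3 fixed markers were raised and their mean log2 difference reached 0.5 (pseudocount 10 CPM). They stayed unnamed where another class's markers led their top 10 genes, or where cartilage genes did (cluster 22, decided after its genes were seen). Low depth with none of the class's own markers in the top 10 also left a cluster unnamed (cluster 21, 74 cells, median 655.5 UMIs). Cluster 21 had 5 of the 11 haematopoietic markers raised, yet as an unnamed cluster it was counted outside the blood-like classes. A class needed 20 cells in a library. The doublet caller marked 0.357% of cells and so had not worked. No cells were removed by it, and cells with the top 5% of scores were left out as an alternative. The p-values, intervals and floors cover counting error or library spread only. The naming rule covered all 9 members, up to 4 called genes with the smallest p per list and comparison (2 where none was called), the 3 genes most like each member, and Fas. The members, lists and tests were chosen with earlier results of these data known. A deposited table of normalised values was not used. Some genes that the naming rule picked are not reported here. Alternatives were DESeq2 1.42.0, RLE normalisation, no filter, only the groups compared, a replicate block and libraries left out. Figures were drawn with matplotlib 3.10.9 in Python 3.11.15.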

Additional observations from a re-analysis of the deposited data

Results flagged for a closer look

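In 3 of the 45 sets of 4 libraries (9 members in 5 groups), 1 library lay far from the other 3 by Dixon's ratio of the gap to the whole range (above the 95% critical value for 4). Chance gives about 1 in 20. Ccng1 in week 3 Fas+/+ replicate 1 was the lowest of its group at 52.6 CPM, with the next at 77.1 CPM (ratio 0.873), and this library also had the highest endothelial marker level. Ccng1 in week 6 Fas-/- replicate 1 was the highest at 92.3 CPM, with the next at 76.3 CPM (ratio 0.871). Mdm2 in the same library was the highest at 56.2 CPM, with the next at 48.0 CPM (ratio 0.929). That library had the lowest endothelial marker level of its group, 167 CPM. The part of cell makeup in these values was not tested.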

How the results depend on the processing

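The rises of Cdkn1a, Cdkn2b and Mdm2 over naive kept their direction and their call under every alternative run. Of the members' log2 fold changes, 1530 of 1620 values with 1 library left out and 450 of 485 under other settings kept direction and side of the threshold. With 1 library left out, the number of members called was 8 to 9 in week 3 Fas+/+, 7 to 9 in week 3 Fas-/-, 3 to 7 in week 6 Fas+/+ and 5 to 7 in week 6 Fas-/- against naive. It was 1 to 7 for week 6 against week 3 in Fas+/+, 1 to 4 in Fas-/-, and 0 between genotypes and for the interaction. The highest value of each of these 6 came without week 3 Fas+/+ replicate 1. For week 6 against week 3 in Fas+/+ (3 members called), DESeq2 called 5 and the fit without the 4 endothelial-high libraries 8. All genes called there in either direction numbered 4117 and 5863, against 3615 in the main fit. In Fas-/- (1 called) the counts were 4 with DESeq2, 2 with RLE normalisation, 2 with only the groups compared, 3 with the replicate block and 4 without those libraries. All genes called numbered 2058, 1411, 1158, 1336 and 2650 in the same order, against 1422 in the main fit. With only the groups compared, Cdkn2b and Trp53 lost their call in Fas+/+ (adjusted p = 0.08375 and 0.0789). DESeq2 called Cdkn2a in week 6 Fas+/+ (2.60, adjusted p = 0.0150). The causes of these changes were not tested.

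Differences near 0 changed sign. The genotype difference of Trp53 at week 3 was -1.95e-04 with RLE normalisation, -3.89e-04 with only the groups compared and -0.080 without the endothelial-high libraries, and that of Phlda3 was -0.042 there. Without them the change from week 3 to 6 in Fas-/- was -0.064 for Cdkn2a, -9.7e-05 for Ccng1 and -0.011 for Zmat3. With 1 library left out, the week 3 genotype difference ranged from -0.079 to 0.015 for Mdm2, -0.086 to 0.068 for Trp53, -0.064 to 0.156 for Ccng1, -0.199 to 0.062 for Gdf15, -0.113 to 0.083 for Phlda3 and -0.137 to 0.105 for Zmat3. At week 6 it ranged from -0.336 to 0.014 for Cdkn2b, -0.035 to 0.050 for Mdm2 and -0.0025 to 0.073 for Trp53. The change from week 3 to 6 in Fas-/- ranged from -0.133 to 0.075 for Cdkn1a, -0.225 to 0.374 for Cdkn2a, -0.021 to 0.1403 for Ccng1 and -0.028 to 0.164 for Zmat3. The interaction ranged from -0.117 to 0.247 for Cdkn2b, -0.016 to 0.107 for Mdm2, -0.031 to 0.122 for Trp53 and -0.198 to 0.028 for Ccng1.

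Replicate numbers shared between groups were not used to pair the libraries, since no 2 groups had a correlation of deviations above 0.1 in every same-numbered pair. That cut does not settle whether some libraries were paired. Between the week 6 groups the mean was 0.198 for same-numbered and -0.066 for other pairs. Between the week 3 groups it was -0.071 and 0.066. With the replicate block Cdkn1a passed for week 6 against week 3 in Fas+/+ (-0.44, adjusted p = 0.0321), and 45, 0 and 3 genes in all passed between genotypes at weeks 3 and 6 and for the interaction. Other counts of all genes that moved by over 1.5 times were, for week 6 Fas+/+ against naive (837), 1406 with DESeq2, 1595 with only the groups compared and 1525 without the endothelial-high libraries, and for week 6 Fas-/- (1022), 1557 with DESeq2 and 1848 without those libraries. Between genotypes they were, at week 3 (27), 163 with DESeq2, 5 with only the groups compared and 1289 without those libraries, and at week 6 (8), 166, 1 and 117 in the same order. For the interaction (1) they were 101, 0 and 250, and 3 with no filter. From week 3 to 6 they were 5863 in Fas+/+ (3615) without those libraries, and in Fas-/- (1422) 891 with no filter and 2650 without them. In single cells, 131 of 172 log2 ratios moved by less than their interval. Leaving out cells with shared barcodes, and keeping only cells outside the endothelial-, epithelial- and blood-like classes, were chosen after seeing the data.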

Other observations

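Secreted factors named for senescent cells were counted beside the members. Of 28 tested, 19 rose and 5 fell in week 3 Fas+/+ and 17 rose and 4 fell in week 3 Fas-/-. Of all tested genes 22.1% and 17.2% were called higher and 19.2% and 14.8% lower there, so the falls were near that background. At week 6, 4 rose and 0 fell in Fas+/+, and 4 rose and 0 fell in Fas-/-, where 3.57% and 3.66% of all tested genes rose. Igfbp2, which binds insulin-like growth factors, rose in every group, from a mean of 7.09 CPM in naive to 59.4, 65.1, 143 and 69.7 CPM in week 3 Fas+/+, week 3 Fas-/-, week 6 Fas+/+ and week 6 Fas-/- (log2 fold change 3.07, 3.20, 4.33 and 3.30). It was also among the leading genes of the epithelial-like cluster, after Ager, Cldn18 and Aqp5. Epithelial markers summed to 52.7 to 131 CPM in naive and to 536 to 1524 CPM in week 6 Fas+/+ libraries, and their part in the value was not tested. Plaur, the urokinase receptor, rose by 2.86 in week 3 Fas+/+, and the adhesion receptor Icam1 by 1.64 in week 6 Fas+/+ and 0.76 in week 6 Fas-/-. Igfbp6 fell by 1.36 and 1.18 on the log2 scale at week 3 in Fas+/+ and Fas-/-.

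Of 9 ATF4 and stress targets tested, of 11 listed, 6 rose and 1 fell in week 3 Fas+/+, and 3 rose and 1 fell in week 3 Fas-/-. The shares of all tested genes there were 22.1% and 17.2% called higher and 19.2% and 14.8% called lower. Asns, asparagine synthetase, rose by 2.21, 1.61 and 0.96 in week 3 Fas+/+, week 3 Fas-/- and week 6 Fas+/+. Of 16 immediate early and heat shock genes 2 rose and 3 fell in week 3 Fas+/+, and 2, 1 and 1 rose in the other groups, where 17.2%, 3.57% and 3.66% of all tested genes rose, so these counts were near or under the background. Ier3, an early response gene, rose in all 4 groups (2.54, 2.18, 1.497 and 1.00).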
